A study of Mus musculus with 12 samples.

Results

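Mitochondrial ribosomal protein genes encode the proteins of the ribosome that works inside mitochondria. They were followed here in 12 bulk RNA libraries of mouse lung fibroblasts. Members were the rows of the deposited expression table whose symbol begins with Mrpl or Mrps and goes on with a number and at most 1 letter (a, b or c). This gave 78 of the 20606 genes in the table, 49 with Mrpl symbols and 29 with Mrps symbols. All 78 reached at least 1 FPKM (fragments scaled for transcript length and for all mapped fragments) in at least 3 libraries, the condition for testing a gene, which 13300 genes met.

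There were 4 groups of 3 libraries. M-MF and M-MyoF were the MF and MyoF subgroups of lung fibroblasts from mice with lung metastasis, and N-MF and N-MyoF were the same subgroups from normal mice. MF stands for the matrix fibroblasts of the series title. The sources used here do not give the mouse strain, the age or how the subgroups were purified, and the extraction protocol in the labels names tissue as the source of RNA. PolyA RNA was extracted with Trizol and turned into cDNA by SMART-seq2, an amplification method for small inputs, before transposon-based library construction. Whether a group's libraries came from separate mice is not in the labels. The p-values therefore reflect library-to-library spread, which may be technical. In bulk samples, fewer cells of a type and less RNA per cell cannot be told apart.

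The mitochondrial ribosome, or mitoribosome, translates the few messenger RNAs encoded by mitochondrial DNA, all of which specify subunits of the respiratory chain and ATP synthase. Its ribosomal RNAs come from mitochondrial DNA, whereas all of its proteins are encoded in the nucleus, made in the cytosol and imported. Some of its proteins descend from the bacterial ribosome and others are found only in mitochondria. The regulators NRF1, ETS factors of the GABP type, YY1 and the coactivator PGC-1alpha (Ppargc1a) are known to act on nuclear genes for mitochondrial proteins.

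Read depth is unknown, because the files hold FPKM and the low values gave no whole reads. The libraries had FPKM sums of 528176 to 618478, and 11466 to 12682 genes at 1 FPKM or more. Log2(FPKM + 1) values of the genes tested correlated at 0.996 to 0.998 between libraries of the same group. MF markers (5 genes) summed to 1010 to 1030 FPKM in M-MF, 4210 to 4330 in N-MF, 265 to 270 in M-MyoF and 628 to 644 in N-MyoF, and MyoF markers (6 genes) to 294 to 298 in M-MF, 447 to 464 in N-MF, 2930 to 2990 in M-MyoF and 4460 to 4570 in N-MyoF. By these sums each subgroup was highest in its own markers, and its own sum was lower in metastasis. Single markers did not all follow. Of the 5 MF markers, 3 were higher and 2 lower in N-MF than in N-MyoF. In M-MF against M-MyoF 3 were higher and 1 lower. All 6 MyoF markers were lower in MF than in MyoF in both conditions. With metastasis 4 MF markers fell and 0 rose in M-MF, while 2 MyoF markers rose and 3 fell in M-MyoF. General fibroblast markers (6 genes) summed to 15200 to 15400 FPKM in M-MF, 21000 to 21200 in N-MF, 1970 to 1990 in M-MyoF and 3470 to 3520 in N-MyoF. Epithelial markers (7 genes) summed to 3030 to 3050 FPKM in M-MF, 2250 to 2310 in N-MF, 15900 to 16400 in M-MyoF and 18800 to 19300 in N-MyoF. Erythroid markers (5 genes) summed to 11.9 to 19.0 FPKM in M-MF, 53.8 to 61.5 in N-MF, 3390 to 3470 in M-MyoF and 6850 to 7000 in N-MyoF. In every MyoF library the epithelial sum and the erythroid sum were each above the fibroblast sum, which does not match a pure fibroblast sample. The erythroid sums, unlike the members', were lower in metastasis. Neutrophil markers (8 genes) summed to 241 to 251 FPKM in M-MF, against 33.2 to 37.9 in N-MF, and to 13000 to 13300 in M-MyoF, against 133 to 146 in N-MyoF. Markers of cycling cells (8 genes) summed to 183 to 190 FPKM in M-MF, against 72.2 to 75.5 in N-MF, and to 329 to 334 in M-MyoF, against 125 to 127 in N-MyoF. Mesothelial markers (6 genes) summed to 241 to 246 FPKM in M-MF, against 6.72 to 7.03 in N-MF, and to 206 to 213 in M-MyoF, against 81.8 to 82.6 in N-MyoF, and 6 of 6 rose in each subgroup, with median log2 fold changes of 4.12 and 1.57. Of these 8 lists, the erythroid Hbb-bt was the 1 gene at 0 in all libraries of a group (N-MF). The neutrophil, cycling and mesothelial sums were higher in metastasis in both subgroups, as the members' were. So were those of endothelial markers (210 to 214 FPKM in M-MF, 156 to 159 in N-MF, 439 to 448 in M-MyoF, 369 to 380 in N-MyoF). B and plasma cell sums were higher too (27.7 to 29.2, 2.45 to 2.53, 22.4 to 25.1 and 12.1 to 13.1 in the same order). Macrophage and T cell sums were lower in M-MF than in N-MF, and overlapped between M-MyoF and N-MyoF. The part of these cell types, epithelial and erythroid ones included, in the values of the members was not tested.

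Both subunits are covered by the members. The large subunit had 51 of them, 29 with a bacterial homologue and 22 specific to mitochondria, including Mrps18a and Mrps30, which sit in the large subunit despite their symbols. The small subunit had 26, of which 16 have a bacterial homologue and 10 are specific to mitochondria. Mrps18b, although related to bacterial S18, was counted among the 10. Mrps36, the remaining member, carries the family's name but is known as a component of the oxoglutarate dehydrogenase complex. The members lie on 17 chromosomes, with 11 on chromosome 11, 8 on chromosome 17 and 7 on chromosome 6. Their median transcript length was 1050 nt, against 2110 nt over all genes tested with an annotated transcript.

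Start-site sequences of the members were searched for letters bound by known regulators of nuclear genes for mitochondrial proteins. RefSeq windows on GRCm38.p6, from 250 bases before to 50 after a start, were at hand for 69 members (75 windows); Mrpl4, Mrpl13, Mrpl15, Mrpl19, Mrpl38, Mrpl54, Mrps28, Mrps34 and Mrps35 had none. Letters searched on both strands were GCGCA and GCGC with 1 base of any kind between them for NRF1, CCGGAAG for ETS factors and AAGATGGC for YY1. Stretches from 100 bases before to 30 after the start follow 5′ to 3′ on the gene's strand, with matches in capitals. They belong to large-subunit genes with some of the largest changes or differences (Mrpl12, Mrpl43, Mrpl44), to paralogs (Mrps18a, Mrps18b) and to members that went the other way in M-MF (Mrpl9, Mrpl49). They lie at chr11:120484537-120484666 (plus strand), chr19:45006413-45006542 (minus), chr1:79775918-79776047 (plus), chr17:46110904-46111033 (plus), chr17:35916411-35916540 (minus), chr3:94443236-94443365 (plus) and chr19:6057726-6057855 (minus).
Mrpl12: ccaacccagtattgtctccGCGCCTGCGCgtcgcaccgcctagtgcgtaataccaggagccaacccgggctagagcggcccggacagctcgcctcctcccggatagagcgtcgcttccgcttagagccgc
Mrpl43: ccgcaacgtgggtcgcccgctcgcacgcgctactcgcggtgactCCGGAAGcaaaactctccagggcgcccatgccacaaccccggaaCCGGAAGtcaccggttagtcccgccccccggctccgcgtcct
Mrpl44: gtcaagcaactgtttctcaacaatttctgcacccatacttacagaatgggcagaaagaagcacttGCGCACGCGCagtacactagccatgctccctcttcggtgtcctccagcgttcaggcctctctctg
Mrps18a: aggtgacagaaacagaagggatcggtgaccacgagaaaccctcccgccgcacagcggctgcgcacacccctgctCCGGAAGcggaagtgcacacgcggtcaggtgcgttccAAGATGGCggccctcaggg
Mrps18b: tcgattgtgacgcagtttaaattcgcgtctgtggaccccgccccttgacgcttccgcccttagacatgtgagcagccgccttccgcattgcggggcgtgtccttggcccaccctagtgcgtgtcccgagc
Mrpl9: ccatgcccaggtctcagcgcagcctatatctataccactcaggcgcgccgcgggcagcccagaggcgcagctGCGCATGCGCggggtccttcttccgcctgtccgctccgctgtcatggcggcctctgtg
Mrpl49: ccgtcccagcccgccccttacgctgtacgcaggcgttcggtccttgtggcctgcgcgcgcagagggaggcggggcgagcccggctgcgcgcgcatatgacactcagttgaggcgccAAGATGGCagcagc

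Mrpl12, Mrpl44 and Mrpl9 each held 1 NRF1 match, Mrpl43 held 2 ETS matches, Mrps18a held 1 ETS and 1 YY1 match, Mrpl49 held 1 YY1 match, and the Mrps18b stretch held none, although its whole window held 1 ETS match. Over the 75 member windows of 300 bases, 13 (17.3%) held the NRF1 letters, against 4.6% of 32851 windows of all genes and 9.12% of 13505 windows of tested genes. The ETS letters were in 26 member windows (34.7%), against 8.86% of all windows and 16.3% of those of tested genes. The YY1 letters were in 12 (16.0%), against 2.75% and 4.03%. At least 1 of the 3 motifs was in 43 member windows (57.3%), against 14.7% of all windows and 26.2% of those of tested genes. A match describes letters only and shows no binding. Median GC content was 58.7% in member windows, 60.3% in those of tested genes and 52.7% in all.

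Levels of the members were close within a group and separated by condition. The summed FPKM of all 78 was 3103, 3124 and 3089 in the M-MF libraries, against 2169, 2201 and 2187 in N-MF. It was 3574, 3562 and 3539 in the M-MyoF libraries, against 2162, 2195 and 2169 in N-MyoF. The sums did not overlap between metastasis and normal libraries of either subgroup, and those of N-MF and N-MyoF lay in the same range. As a share of a library's whole FPKM sum, the members took 0.54 to 0.544% in M-MF, 0.408 to 0.414% in N-MF, 0.576 to 0.578% in M-MyoF and 0.399 to 0.405% in N-MyoF. Within a group, the median coefficient of variation of a member over its 3 libraries was 3.3% in M-MF, 3.83% in N-MF, 3.94% in M-MyoF and 4.29% in N-MyoF.

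Members differed widely from each other in level per transcript length. The 5 most abundant over the 12 libraries were the large-subunit genes Mrpl42, Mrpl33, Mrpl4, Mrpl27 and Mrpl30. Mrpl42, a mitochondria-specific protein, averaged 120 ± 3.59 FPKM in M-MF, 78.8 ± 2.03 in N-MF, 125 ± 2.82 in M-MyoF and 86.8 ± 2.4 in N-MyoF (SD, n = 3 each). Mrpl33, homologue of a small bacterial large-subunit protein, averaged 128 ± 3.43 FPKM in M-MF, 75.1 ± 2.04 in N-MF, 113 ± 2.06 in M-MyoF and 67.0 ± 4.57 in N-MyoF. The 5 least abundant were Mrpl19, Mrps25, Mrpl11, Mrpl35 and Mrpl57. Mrpl19 averaged 4.1 ± 0.289 FPKM in M-MF, 2.34 ± 0.131 in N-MF, 5.74 ± 0.172 in M-MyoF and 2.6 ± 0.146 in N-MyoF. The order of the groups was thus not the same for all members: Mrpl33 was highest in M-MF and Mrpl19 in M-MyoF. Mrpl19 and Mrps25 share 39.2% and 58.2% of their exon bases with genes on the opposite strand (Gcfc2 and Nr2c2), and since the counting is not stated to use strand, their levels are uncertain.

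**Figure D1:**
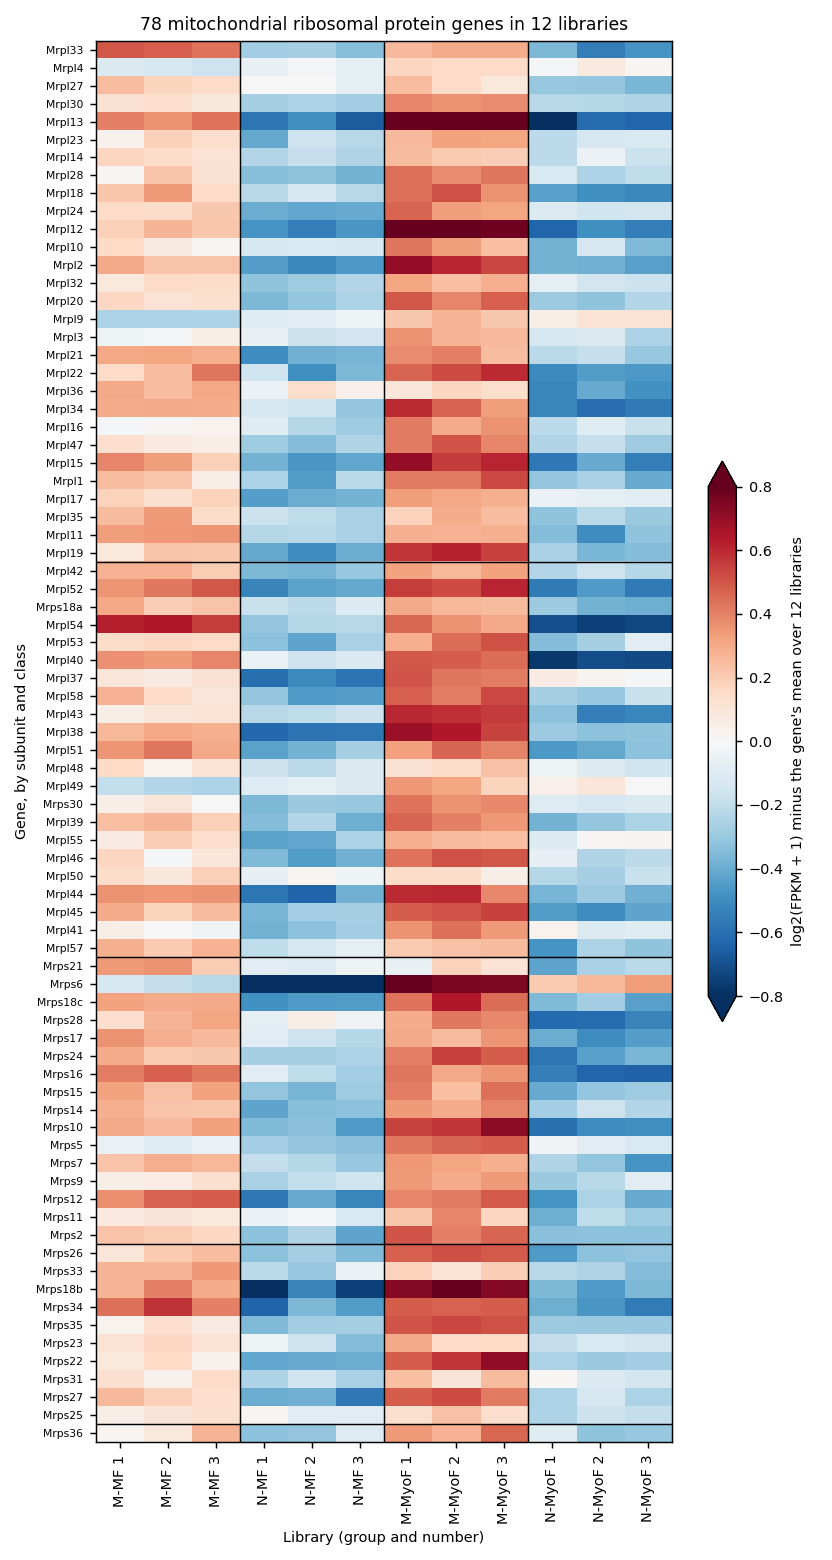
Heat map of the 78 genes (rows, grouped from top to bottom as large subunit with bacterial homologue, large subunit specific to mitochondria, small subunit with bacterial homologue, small subunit specific to mitochondria, and Mrps36) in the 12 libraries (columns). Colour gives log2(FPKM + 1) minus the gene's mean over the 12 libraries, and values beyond 0.8 take the end colour. Most rows are red in M-MF and M-MyoF and blue in N-MF and N-MyoF, while Mrpl4, Mrpl9 and Mrpl49 are below their mean in M-MF.

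The first comparison asked how the MF subgroup from mice with lung metastasis differed from the normal one. Of the 78 members, 75 rose in M-MF and 3 fell. Over all genes tested, 46.3% rose and 31.8% fell. The members' median log2 fold change was 0.49, a 1.4-fold change, with values from -0.18 to 1.02, against a median of 0.08 over all genes tested. Changes were tested with limma on log2(FPKM + 1) across all 13300 genes, a gene passing at an adjusted p under 0.05, and fold changes refer to that scale. A rise of at least 1.5-fold was seen in 25 members, against 18.8% of all genes tested. For every member the 3 M-MF values lay wholly above or below the 3 N-MF values, 75 above (47.1% of all genes) and 3 below (32.8%).

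Scaling moved the whole distribution of changes and not only the members. When libraries were rescaled to equal sums, by median ratios or by quantile normalization, the median of all genes shifted to between 0.0 and -0.09, and that of the members to between 0.39 and 0.27. Relative to the median of all genes, the members' median was 0.41 higher as deposited, and 0.39, 0.38 and 0.36 higher under the 3 scalings. The share of calls in all genes that were rises was 59.3% as deposited and 50%, 48.0% and 41.4% under the same scalings. Under them, 6, 7 and 15 members no longer passed the test. Over all genes tested, 39.8%, 38.3% and 33.3% were higher under them.

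Both subunits moved in the same direction in M-MF. In the large subunit 48 of 51 members rose and 3 fell, with a median log2 fold change of 0.48, and in the small subunit 26 of 26 rose, with a median of 0.50. Members with a bacterial homologue and members specific to mitochondria had medians of 0.46 and 0.50 in the large subunit and 0.51 and 0.49 in the small one. Mrps36, which is not part of the ribosome, rose by 0.37, and no longer passed under quantile normalization (0.12).

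The 5 largest rises in M-MF were those of Mrps18b, Mrpl13, Mrps34, Mrps12 and Mrpl44. Mrps18b, one of 3 mammalian proteins related to bacterial S18, had 39.2, 43.0 and 39.8 FPKM in M-MF, against 18.1, 22.0 and 18.8 in N-MF. Every M-MF library was above every N-MF library, and the log2 fold change was 1.02 (SE 0.0603, limma adjusted p = 5.38e-09). Mrpl13, homologue of a core protein of the bacterial large subunit, had 92.3, 89.4 and 94.2 FPKM in M-MF, against 46.2, 49.2 and 43.6 in N-MF, a log2 fold change of 0.98. Of its exon bases, 20.4% lie opposite Mtbp, which itself rose by 1.11. Mrps34, a mitochondria-specific small-subunit protein needed for the stability of the small subunit, had 39.0, 43.0 and 38.0 FPKM in M-MF, against 17.9, 21.9 and 20.6 in N-MF. Mrps12, homologue of the bacterial decoding-site protein S12, had 25.7, 27.6 and 27.9 FPKM in M-MF, against 12.9, 14.6 and 13.4 in N-MF. For both, the lowest M-MF value was above the highest N-MF value, with log2 fold changes of 0.96 and 0.94. Mrpl44, a large-subunit protein with a ribonuclease III-like fold, had 13.5, 13.4 and 13.5 FPKM in M-MF, against 6.58, 6.26 and 7.69 in N-MF, a log2 fold change of 0.89.

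At the lower end, 3 large-subunit members fell in M-MF. Mrpl9, homologue of a bacterial protein at the base of the L1 stalk, had 28.5, 28.7 and 28.7 FPKM in M-MF, against 31.9, 32.2 and 33.2 in N-MF, a log2 fold change of -0.18 (SE 0.0265, adjusted p = 5.03e-05). Mrpl49, a mitochondria-specific protein, had 20.3, 19.8 and 19.5 FPKM in M-MF, against 21.8, 22.3 and 21.6 in N-MF, and changed by -0.13 (adjusted p = 0.0104). Mrpl4, homologue of a protein that lines the bacterial exit tunnel and the third most abundant member, had 84.3, 82.9 and 81.4 FPKM in M-MF, against 87.9, 90.7 and 87.0 in N-MF, a change of -0.09. The groups did not overlap for any of these, but the differences were small beside those of the other members. They stayed lower in M-MF under all 3 scalings, under which quantile normalization added Mrpl3. Mrpl3 averaged 30.3 ± 1.05 FPKM in M-MF and 27.7 ± 1.25 in N-MF (SD, n = 3 each), a log2 fold change of 0.13 as deposited and of -0.01 and -0.10 under median-ratio scaling and quantile normalization. Its call was also lost without M-MF 3 (0.10), without N-MF 2 (0.10) or without N-MF 3 (0.11). Mrps25 averaged 4.63 ± 0.159 FPKM in M-MF and 4.09 ± 0.217 in N-MF, a change of 0.15, which was 0.00 under quantile normalization.

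The same question in the MyoF subgroup gave a larger median shift. All 78 members rose in M-MyoF, where 49.1% of all genes tested rose and 31.6% fell. The median log2 fold change was 0.66, a 1.57-fold change, with values from 0.13 to 1.59, against a median of 0.11 over all genes tested. At least 1.5-fold rises numbered 47 of 78, against 22.2% of all genes. In every member the 3 M-MyoF values were above the 3 N-MyoF values, as they were in 49.9% of all genes. Relative to the median of all genes, the members' median was 0.55 higher as deposited and 0.54, 0.52 and 0.52 higher under the 3 scalings in the same order. Members past the test and higher numbered 78 as deposited and 72, 75 and 68 under those scalings. Over all genes tested, 37.7%, 39.4% and 34.5% were higher under them.

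**Figure D2:**
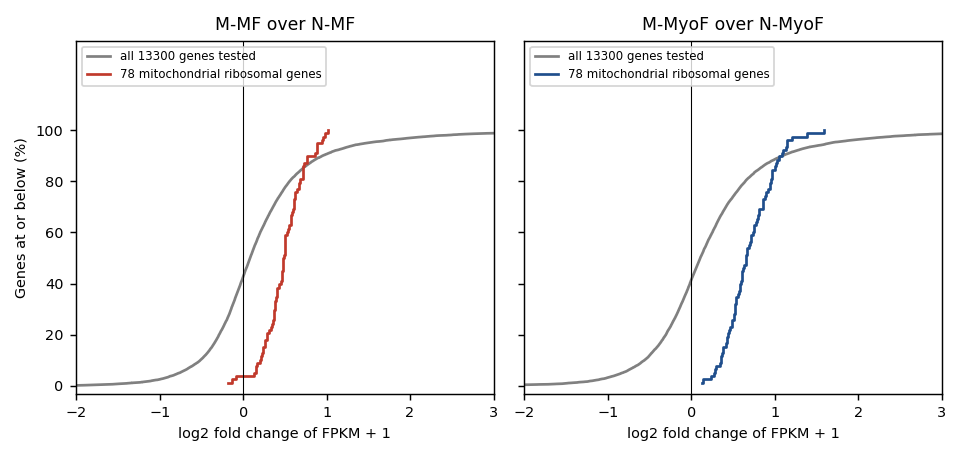
Cumulative share of genes (y axis, %) at or below a log2 fold change of FPKM + 1 (x axis) for M-MF over N-MF (left) and M-MyoF over N-MyoF (right), for the 78 members (coloured) and all 13300 genes tested (grey). Over most of their range the member curves lie right of the grey ones, with medians of 0.49 and 0.66 against 0.08 and 0.11, and they span less on both sides.

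In M-MyoF all 26 small-subunit and all 51 large-subunit members were higher, with medians of 0.72 and 0.63. The 5 largest rises were those of Mrpl13, Mrpl12, Mrpl40, Mrps18b and Mrps10. Mrpl13 had 130, 132 and 127 FPKM in M-MyoF, against 37.8, 45.0 and 44.4 in N-MyoF, and rose 3.02-fold (log2 1.59, SE 0.0584, adjusted p = 3.48e-11); Mtbp, opposite part of its exons, rose by 1.91. Mrpl12, homologue of the bacterial stalk protein that contacts translation factors, had 75.3, 79.6 and 73.7 FPKM in M-MyoF, against 27.0, 29.9 and 28.6 in N-MyoF. The lowest M-MyoF library thus stood far above the highest N-MyoF library, and the log2 fold change was 1.39 (SE 0.041, adjusted p = 4.03e-12). Mrpl40, a mitochondria-specific large-subunit protein, had 51.1, 50.5 and 49.3 FPKM in M-MyoF, against 20.6, 21.6 and 21.4 in N-MyoF, a log2 fold change of 1.21. Mrps18b had 54.3, 56.8 and 54.4 FPKM in M-MyoF, against 24.9, 23.3 and 24.9 in N-MyoF, a log2 fold change of 1.15. Mrps10, homologue of the bacterial small-subunit protein S10, had 42.2, 43.1 and 48.0 FPKM in M-MyoF, against 18.6, 20 and 20.1 in N-MyoF, a log2 fold change of 1.14. None of these 5 had a metastasis value within the range of the normal libraries.

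The 5 smallest rises in M-MyoF were those of Mrpl4, Mrpl9, Mrpl49, Mrpl48 and Mrps31. Mrpl4 had 103, 102 and 102 FPKM in M-MyoF, against 91.0, 96.7 and 92.7 in N-MyoF, a log2 fold change of 0.13 as deposited and of -0.06, -0.03 and -0.18 under the 3 scalings. Mrpl9 had 39.8, 41.4 and 39.8 FPKM in M-MyoF, against 35.4, 37.0 and 37.0 in N-MyoF, a change of 0.14 as deposited and of -0.05, -0.02 and -0.15 under the same scalings. Mrpl49 had 30.1, 29.4 and 26.7 FPKM in M-MyoF, against 24.1, 25.1 and 23.4 in N-MyoF, a change of 0.24 as deposited and -0.03 under quantile normalization. The direction in which these 3 genes moved in M-MyoF thus depended on the scaling, which was not so in M-MF. Mrpl48 and Mrps31 rose by 0.27 and 0.28, and no longer passed with equal sums or quantile normalization.

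In both subgroups together, 75 of 78 members (96.2%) rose with metastasis, against 36.7% of all genes tested. Mrpl4, Mrpl9 and Mrpl49 were the 3 others, lower in M-MF and higher in M-MyoF, a pattern seen in 4.21% of all genes. At least 1.5-fold rises in both were seen in 20 members (25.6%), against 13.5% of all genes. Among 8570 tested genes whose mean lay in the members' range of 3.7 to 103 FPKM, 49.2% rose in M-MF and 53.1% in M-MyoF, with medians of 0.10 and 0.15.

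**Figure D3:**
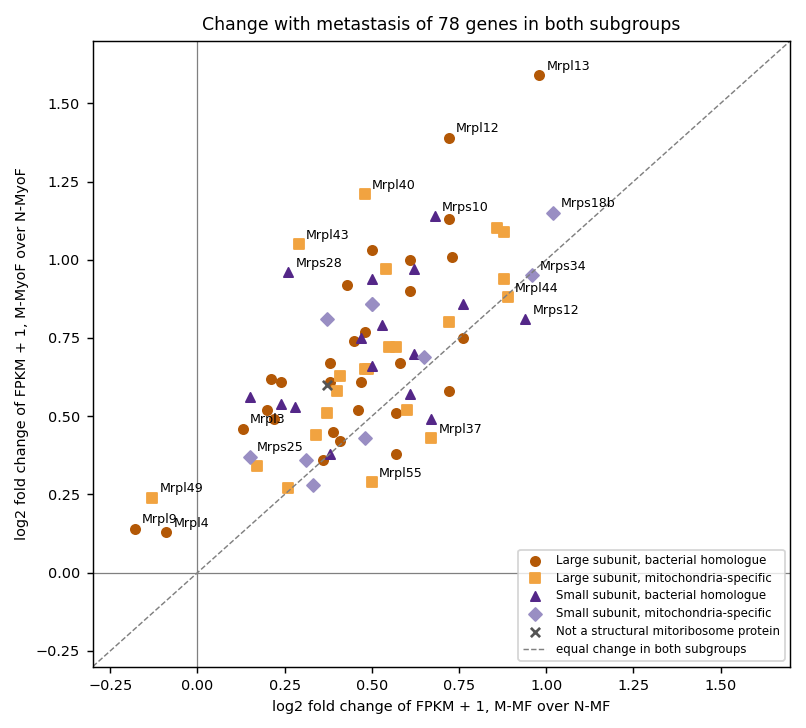
Log2 fold change of each of the 78 members in M-MF over N-MF (x axis) and in M-MyoF over N-MyoF (y axis), with symbols for subunit and class and a dashed line of equal change. Most points lie in the upper right and above the dashed line, with Mrpl13 (0.98 and 1.59) farthest out and Mrpl4, Mrpl9 and Mrpl49 left of 0 on the x axis.

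Changes with metastasis were tested for a difference between the subgroups, as the M-MF effect minus the M-MyoF effect. It passed as negative in 42 members and as positive in 4. Of all genes tested 64.4% passed, 38.0% negative and 26.4% positive. The members' median difference was -0.21, against -0.06 over all genes. Relative to that, the members' median stood at -0.15 as deposited and at -0.14 to -0.15 under the 3 scalings. Cell type markers differed in the same contrast. The difference was negative in 8 of 8 neutrophil markers (median -3.49) and in 6 of 8 markers of cycling cells (median -0.44), as it was in most members that passed. It was positive in 6 of 6 mesothelial markers (median 2.71), 6 of 7 epithelial markers (median 0.71) and 5 of 6 MyoF markers (median 0.79). Neutrophil markers rose in 8 of 8 cases in M-MyoF, with a median log2 fold change of 6.03, and in 6 of 8 in M-MF, with a median of 2.26. The part of these markers' cell types in the result was not tested.

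Members with the most negative difference were Mrpl43, Mrpl40, Mrps28 and Mrpl12. Mrpl43, a mitochondria-specific large-subunit protein, averaged 33.5 ± 0.714 FPKM in M-MF and 27.3 ± 0.514 in N-MF, and 47.6 ± 0.759 in M-MyoF and 22.6 ± 2.03 in N-MyoF (SD, n = 3 each). Its effects were 0.29 and 1.05, and the difference was -0.76 (SE 0.0669, adjusted p = 7.29e-07). Of its exon bases, 27.5% lie opposite Twnk, the gene of the mitochondrial DNA helicase, which rose by 0.40 in M-MF and 0.49 in M-MyoF. Mrpl40 averaged 46.6 ± 0.85 FPKM in M-MF and 33.2 ± 1.32 in N-MF, and 50.3 ± 0.955 in M-MyoF and 21.2 ± 0.495 in N-MyoF, a difference of -0.73. Mrps28, which carries a domain like that of bacterial protein S1, averaged 51.1 ± 3.36 FPKM in M-MF and 42.6 ± 1.94 in N-MF, and 55.9 ± 2.53 in M-MyoF and 28.3 ± 0.979 in N-MyoF, a difference of -0.70. In Mrpl40 and Mrps28 the metastasis groups lay close together and the normal groups far apart. Mrpl12 had 48.6, 51.5 and 49.8 FPKM in M-MF, against 30.4, 28.7 and 30.5 in N-MF, so that its difference of -0.66 came with similar normal levels and a higher level in M-MyoF.

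The 4 positive differences as deposited were those of Mrpl37, Mrpl55, Mrpl17 and Mrps6. Mrpl37, a mitochondria-specific large-subunit protein, averaged 37.2 ± 0.685 FPKM in M-MF and 23.1 ± 0.863 in N-MF, and 47.8 ± 1.66 in M-MyoF and 35.3 ± 0.952 in N-MyoF, a difference of 0.24 (SE 0.0475, adjusted p = 0.000776). Mrpl55 and Mrpl17 differed by 0.21 and 0.19. The call for Mrpl55 was lost without M-MF 2 (0.18), N-MF 1 (0.18) or N-MF 2 (0.19). Mrps6, homologue of the bacterial small-subunit protein S6, averaged 45.4 ± 1.52 FPKM in M-MF and 28.1 ± 0.737 in N-MF, and 88.5 ± 1.63 in M-MyoF and 62.6 ± 2.76 in N-MyoF, a difference of 0.18. Slc5a3, an inositol transporter gene that shares 18.8% of the exon bases of Mrps6 on the same strand, changed by -0.50 in M-MF and -1.02 in M-MyoF. The unnamed gene model Gm49711 shares 36.1% of them, also on the same strand, so the level of Mrps6 is uncertain. Mrpl42, the most abundant member, had a difference of 0.08 that missed the threshold as deposited, and passed as positive under the 3 scalings (0.16, 0.11 and 0.12), without M-MF 3 (0.11), without N-MF 3 (0.10) and without the libraries numbered 3 (0.15).

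**Figure D4:**
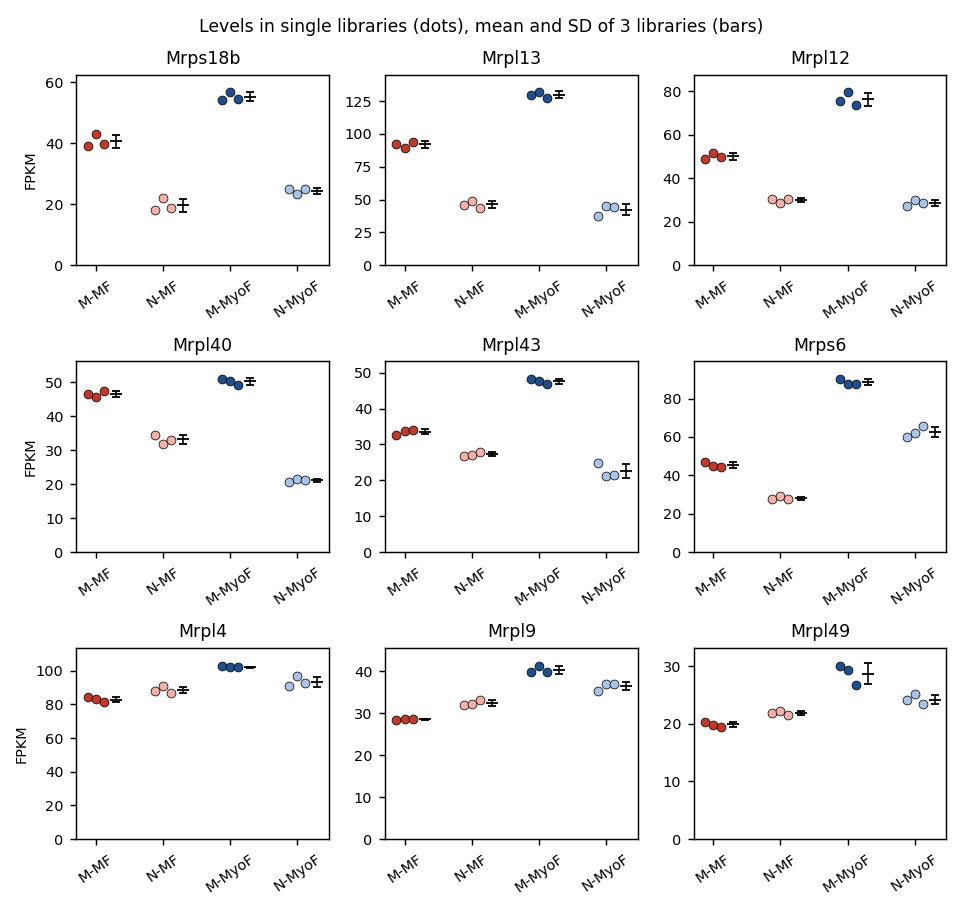
FPKM of 9 members in each library (dots, 3 per group, y axes from 0) with the mean and SD of the 3 libraries beside them, in M-MF, N-MF, M-MyoF and N-MyoF. Mrps18b, Mrpl13, Mrpl12, Mrpl40 and Mrpl43 are higher in both metastasis groups, Mrps6 is higher in both MyoF groups than in the MF groups, and Mrpl4, Mrpl9 and Mrpl49 change little.

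The 3 paralogs related to bacterial S18 occupy different places in the mitoribosome and rose by different amounts. Mrps18a, in the large subunit, had 75.4, 69.7 and 71.1 FPKM in M-MF, against 53.4, 52.4 and 56.1 in N-MF, and 74.9, 73.2 and 72.6 in M-MyoF, against 49.3, 46.5 and 46.0 in N-MyoF. It rose by 0.41 and 0.63. Mrps18c, in the small subunit at the place of the bacterial protein, had 64.0, 63.0 and 63.3 FPKM in M-MF, against 36.3, 37.1 and 37.3 in N-MF, and 69.5, 80.2 and 69.9 in M-MyoF, against 39.8, 42.0 and 37.6 in N-MyoF. It rose by 0.76 and 0.86. Mrps18b, elsewhere in the small subunit, had the lowest FPKM of the 3 in each of the 12 libraries and rose by 1.02 and 1.15. In both subgroups the order of the changes was Mrps18b, Mrps18c and Mrps18a, and the differences between the paralogs were not tested.

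Normal MF and MyoF fibroblasts were compared next, and their order depended on how libraries were scaled. As deposited, 22 members were higher and 24 lower in N-MF than in N-MyoF, where 24.5% of all genes tested were higher and 57.6% lower. The members' median was -0.01, against -0.21 over all genes. With median-ratio scaling 65 members were higher and 3 lower, against 42.9% and 37.6% of all genes. With quantile normalization 45 were higher and 7 lower, against 40.6% and 38.5%. Relative to the median of all genes, the members' median was 0.20 higher as deposited, and 0.22, 0.25 and 0.15 higher under the 3 scalings. At the upper end, Mrpl40 had 34.5, 31.9 and 33.1 FPKM in N-MF, against 20.6, 21.6 and 21.4 in N-MyoF, a log2 fold change of 0.62. Mrps28 and Mrpl36 followed at 0.57 and 0.51. At the lower end, Mrps6 had 27.6, 29.0 and 27.8 FPKM in N-MF, against 60.0, 62.3 and 65.5 in N-MyoF, a log2 fold change of -1.13, beside -0.93 for Slc5a3. Mrpl37 and Mrpl55 stood at -0.59 and -0.34. The groups did not overlap for these 6 members, and their directions were the same under all 3 scalings, with Mrpl55 no longer past the test under median-ratio scaling (-0.06).

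In fibroblasts from mice with metastasis, 5 members were higher and 53 lower in M-MF than in M-MyoF, where 19.1% of all genes tested were higher and 66.0% lower. The median was -0.20, against -0.29 over all genes. This split also turned with the scaling, and the shares over all genes moved too. With median-ratio scaling 40 members were higher and 10 lower, against 37.6% and 40.1% of all genes. With quantile normalization 23 were higher and 22 lower, against 35.7% and 40.7%. Mrpl54, Mrps21 and Mrpl33 were at the upper end, at 0.23, 0.22 and 0.18. Mrps6 (-0.95), Mrpl12 (-0.60) and Mrps5 (-0.53) were at the lower end. Mrps6 had 47.1, 45.1 and 44.1 FPKM in M-MF, against 90.3, 87.6 and 87.5 in M-MyoF, so the gap seen between the normal subgroups was there in metastasis as well.

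Some members share a start region with another gene. Of 78 members, 18 (23.1%) had a protein-coding gene starting within 1000 bp and running away from them on the opposite strand. This was so for 1247 of 12956 tested genes (9.62%). Starts were the gene ends of the GENCODE annotation, and only pairs without overlap there were counted. By this rule Mrps11 and Mrpl46 are not among the 18, although their RefSeq start windows lie close together on opposite strands of chromosome 7. Of the partners of these 18, 17 were tested. In M-MF 10 rose and 6 fell (46.3% and 31.8% over all genes tested), with a median log2 fold change of 0.35, while the members beside them had a median of 0.65. In M-MyoF 11 rose and 4 fell (49.1% and 31.6% over all genes tested), with medians of 0.36 for the partners and 0.69 for the members. Mrps18b starts 45 bp from Ppp1r10, a gene for a regulatory subunit of protein phosphatase 1, which fell by 1.72 on the log2 scale in M-MF and by 2.01 in M-MyoF while Mrps18b rose. Mrpl51 starts 100 bp from Ncapd2, a condensin subunit gene, which rose by 1.18 and 2.07, beside 0.72 and 0.80 for Mrpl51. Mrpl50 starts 83 bp from Zfp189, which changed by -0.68 and -0.45, beside 0.17 and 0.34 for Mrpl50. These 3 pairs were picked after their values were seen.

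Mitoribosome proteins with other kinds of symbols rose as well. All 5 listed were higher in both subgroups, with medians of 0.55 in M-MF and 0.68 in M-MyoF. Dap3, a GTP-binding small-subunit protein also known from cell death, averaged 38.9 ± 0.74 FPKM in M-MF and 20.7 ± 0.597 in N-MF, and 42.3 ± 1.1 in M-MyoF and 21.5 ± 0.542 in N-MyoF, log2 fold changes of 0.88 and 0.94 (SD, n = 3 each). Chchd1, a small-subunit protein, rose by 0.65 and 1.17, and Ptcd3, an RNA-binding small-subunit protein, by 0.52 and 0.68.

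Genes that build and serve the mitoribosome gave mixed calls, some of them at shares near those of all genes tested, of which 46.3% rose and 31.8% fell in M-MF and 49.1% rose and 31.6% fell in M-MyoF. Of 24 genes for assembly and ribosomal RNA modification, 13 rose and 5 fell in M-MF, with a median of 0.16, and 16 rose and 2 fell in M-MyoF, with a median of 0.36. Ddx28, an RNA helicase of large-subunit assembly, rose by 0.69 and 0.97, Noa1, a GTPase of small-subunit assembly, by 0.45 and 0.98, and Rpusd4, a pseudouridine synthase, by 0.40 and 0.80. Of 15 translation factors, 10 rose and 1 fell in M-MF and 13 rose in M-MyoF, with medians of 0.25 and 0.46. Tsfm and Tufm, the mitochondrial elongation factors Ts and Tu, rose by 0.65 and 0.35 in M-MF and by 0.93 and 0.49 in M-MyoF. Of 17 mitochondrial aminoacyl-tRNA synthetases, 8 rose and 5 fell in M-MF and 10 rose and 1 fell in M-MyoF, with medians of 0.14 and 0.26. The synthetases' calls in M-MF, 47.1% higher and 29.4% lower, were close to the shares over all genes. Of 13 genes for transcription and replication of mitochondrial DNA, 6 rose and 3 fell in M-MF and 9 rose and 3 fell in M-MyoF, with medians of 0.20 and 0.42; the 46.2% higher in M-MF was again close to the share over all genes. Tfam, which packages mitochondrial DNA and helps start its transcription, averaged 5.99 ± 0.0802 FPKM in M-MF and 5.58 ± 0.257 in N-MF. Its change of 0.09 missed the threshold and was -0.01 to -0.06 under the 3 scalings. In M-MyoF it rose by 0.50. The counts of all 4 lists depended on the scaling, as did those of all genes. With quantile normalization, 33.3% of all genes tested rose and 47.1% fell in M-MF, with a median of -0.09. In M-MyoF 34.5% rose and 48.1% fell, with a median of -0.1. In M-MF, quantile normalization gave 7 rises and 8 falls (median 0.01) for the assembly genes, 6 and 4 (0.05) for the translation factors, 7 and 7 (-0.04) for the synthetases and 4 and 3 (0.03) for the mitochondrial DNA genes. In M-MyoF it gave 12 rises and 7 falls (0.15) for the assembly genes, 11 and 0 (0.22) for the translation factors, 8 and 7 (0.09) for the synthetases and 7 and 3 (0.24) for the mitochondrial DNA genes. With the other 2 scalings the medians were 0.01 to 0.20 in M-MF and 0.14 to 0.31 in M-MyoF. Those of all genes were 0.0 and -0.02 in M-MF and -0.06 and -0.03 in M-MyoF. As deposited, the medians of these 4 lists were below the members' in both subgroups; the differences were not tested.

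Regulators of nuclear genes for mitochondrial proteins went both ways. Of 8 tested, 2 rose and 5 fell in M-MF (46.3% and 31.8% over all genes tested), with a median of -0.18, and 1 rose and 4 fell in M-MyoF (49.1% and 31.6%), with a median of -0.22. Gabpb1, a partner subunit of Gabpa in GABP, had the largest rise in both and was picked after its values were seen. It averaged 13.0 ± 0.582 FPKM in M-MF and 9.12 ± 1.06 in N-MF, and 22.2 ± 0.634 in M-MyoF and 15.5 ± 0.232 in N-MyoF (SD, n = 3 each), and rose by 0.47 and 0.49. Ppargc1a had 0.25, 0.38 and 0.48 FPKM in M-MF, against 1.23, 1.04 and 0.92 in N-MF, and 1.59, 1.78 and 1.67 in M-MyoF, against 2.58, 2.59 and 3.12 in N-MyoF. It fell by 0.59 and 0.49 on the log2(FPKM + 1) scale, where the added 1 shrinks changes of such low values. Nrf1 averaged 13.2 ± 0.57 FPKM in M-MF and 14.6 ± 0.197 in N-MF, and 22.2 ± 0.895 in M-MyoF and 21.9 ± 1.4 in N-MyoF, changes of -0.13 and 0.02 of which the first passed the test. Gabpa, the DNA-binding part of GABP, changed by -0.24 and -0.04, the first past the test, and Yy1 fell by 0.42 and 0.41. Pprc1, a coactivator related to Ppargc1a, fell by 0.32 and 0.53. Myc averaged 224 ± 2.47 FPKM in M-MF and 204 ± 1.23 in N-MF, and 327 ± 5.93 in M-MyoF and 543 ± 7.39 in N-MyoF, so it fell by 0.73 in M-MyoF, while its change of 0.13 in M-MF was -0.01 and -0.18 under median-ratio scaling and quantile normalization. Under the 3 scalings the changes in M-MyoF were -0.17, -0.13 and -0.24 for Nrf1 and -0.23, -0.19 and -0.28 for Gabpa, all past the test.

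Other nuclear-encoded mitochondrial genes and the cytosolic ribosome rose beside the members. Over all genes tested, 46.3% rose in M-MF and 49.1% in M-MyoF. All 29 listed respiratory chain subunit genes rose in M-MF and 28 in M-MyoF, with medians of 0.52 and 0.58. Cox5a, a subunit of cytochrome c oxidase, averaged 163 ± 2.34 FPKM in M-MF and 69.2 ± 1.97 in N-MF, and 215 ± 4.56 in M-MyoF and 82.1 ± 1.63 in N-MyoF, log2 fold changes of 1.22 and 1.38. Of 13 chaperone and import genes, 12 rose in each subgroup, with medians of 0.60 and 0.83, among them the chaperonin Hspd1 by 1.01 and 1.45. All 9 markers of mitochondrial mass rose in both, with medians of 0.61 and 0.59. Of 76 cytosolic ribosomal protein genes, 75 rose in M-MF and 76 in M-MyoF, with medians of 0.65 and 0.96, above those of the mitochondrial members in both subgroups. With quantile normalization, the respiratory chain gave 24 rises and 2 falls (median 0.25) in M-MF and 22 and 3 (0.28) in M-MyoF. Chaperone and import genes gave 10 and 1 (0.37) and 12 and 1 (0.58). All 9 mass markers still rose (0.27 and 0.31), as did 73 and 76 cytosolic ribosomal genes (0.41 and 0.73). Under that scaling 33.3% of all genes tested rose and 47.1% fell in M-MF, and 34.5% rose and 48.1% fell in M-MyoF. As deposited, the 8 markers of cycling cells also rose in both subgroups, with medians of 2.30 and 2.91. With quantile normalization 7 of them rose in each subgroup, and 1 fell in M-MyoF. Whether the members' rise goes with the cycling cells was not tested.

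**Figure D5:**
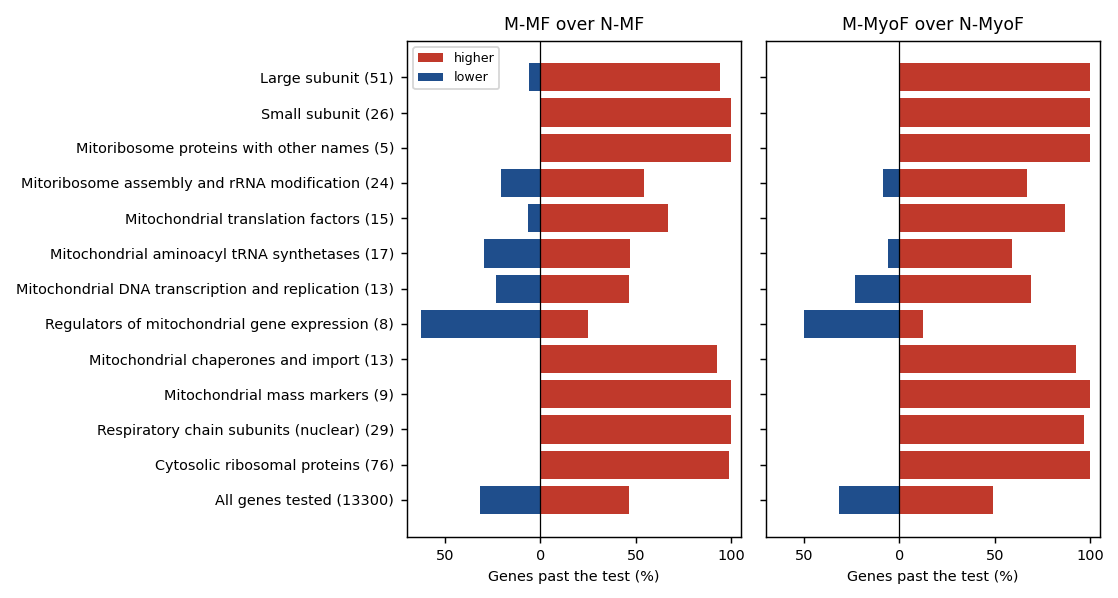
Share of each gene list (number of tested genes in brackets) past the test and higher (red, right of 0) or lower (blue, left of 0), for M-MF over N-MF (left) and M-MyoF over N-MyoF (right). The mitoribosome subunits, chaperones, mass markers, respiratory chain and cytosolic ribosomal proteins are nearly all red, the assembly, synthetase and mitochondrial DNA lists are mixed, and most of the regulators that passed are blue.

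Transcript length moved with the values over all genes. The median log2 fold change of genes under 1000 nt was 0.26 in M-MF and 0.30 in M-MyoF, and that of genes of at least 4000 nt was -0.05 in both. Members under 1000 nt (36 genes) had medians of 0.50 and 0.64, those from 1000 to 2000 nt (24 genes) 0.49 and 0.66, and those from 2000 to 4000 nt (15 genes) 0.41 and 0.67. In each of these length classes the members' median was above that of all genes, which was 0.15 and 0.20 from 1000 to 2000 nt and 0.02 and 0.07 from 2000 to 4000 nt. Overlaps with other genes limit 17 members that share exon bases with one, 9 of them over at least 10% of their exon bases. For 3 members the annotation holds named pseudogenes, 5 in all, with which reads could be shared.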

How the data were processed

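The authors deposited 1 table of FPKM values (fragments scaled for transcript length and for all mapped fragments) for 20606 genes in 12 libraries, per the file headers. The genome build was GRCm38, per the submitters' processing notes, and the sources used here do not give the aligner, counting tool, annotation or strand setting. Groups come from the sample titles, and 0 columns belonged to no sample. Since FPKM are normalised within a library, changes are relative to the library's other RNA.

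The filter of 1 FPKM or more in 3 or more libraries kept 13300 genes. Their log2(FPKM + 1) values were fitted with limma 3.58.1 (R 4.3.3) in 1 model of the 4 group means with a mean-variance trend. P-values of each of 5 contrasts were Benjamini-Hochberg adjusted across all genes, and calls needed an adjusted p under 0.05. The code was tested on simulated data. Python 3.11.15, pandas 2.3.3, numpy 2.4.6 and matplotlib 3.10.9 were used. Coordinates and start windows are RefSeq's on GRCm38.p6. Exon overlaps, transcript lengths and neighbours come from GENCODE for GRCm38.

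Members, lists and tests were chosen with earlier results of these data known. Named members are the 5 at each end of both metastasis contrasts, 4 at each end of their difference, 3 at each end of both MF against MyoF contrasts, the 5 most and 5 least abundant, and the S18 paralogs. From other lists, up to 3 genes with the smallest p, and set regulators, may be named. Mrps36, Gabpb1, partners in shared start regions and overlapping genes fall outside this rule.

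No label says what library numbers 1 to 3 mark. Deviations from group means over 1830 genes at 50 FPKM or more correlated at 0.482 to 0.796 in 18 pairs with the same number and at -0.683 to 0.38 in 36 pairs with different numbers, so the numbers were taken to pair libraries in an alternative fit. Other alternatives were pseudocounts, filters, 3 scalings, the compared groups only, leaving out libraries, and a stricter threshold.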

Additional observations from a re-analysis of the deposited data

Results flagged for a closer look

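Among the 35 named members, 22 changed with metastasis to a different extent in the MF and MyoF subgroups. The limma test was of the difference itself (MF effect minus MyoF effect, on the log2 scale). Passing it was common, as 64.4% of all genes tested also did. Named members include those at both ends of this same difference, so the count of 22 is partly set by how they were chosen. Of all 78 members, 53.8% passed as negative and 5.13% as positive, against 38.0% and 26.4% of all genes tested. The difference was negative, the M-MyoF rise being larger, for Mrpl43 (-0.76), Mrpl40 (-0.73), Mrps28 (-0.70), Mrpl12 (-0.66), Mrpl13 (-0.62), Mrps10 (-0.46), Mrpl36 (-0.36), Mrpl3 (-0.34), Mrps5 (-0.31), Mrpl19 (-0.29), Mrpl27 (-0.27), Mrpl54 (-0.24), Mrpl30 (-0.23), Mrps25 (-0.22) and Mrps18a (-0.22). It was also negative for Mrpl49 (-0.37), Mrpl9 (-0.32) and Mrpl4 (-0.22), which were lower in M-MF than in N-MF. The difference was positive, the M-MF rise being larger, for Mrpl37 (0.24), Mrpl55 (0.21), Mrpl17 (0.19) and Mrps6 (0.18).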

How the results depend on the processing

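Rescaling the libraries moved the size of the changes and, for some results, their direction; the cause was not tested. Under 3 scalings (equal sums, then median-ratio scaling, then quantile normalization), members at least 1.5-fold higher in M-MF numbered 16, 15 and 8 (25 as deposited). Those in M-MyoF numbered 29, 31 and 25 (47 as deposited). At that cut-off, 18.8% and 22.2% of all genes rose as deposited, and shares under the scalings were not counted. The members' medians in M-MF were 0.39, 0.36 and 0.27, against 0.0, -0.02 and -0.09 over all genes. In M-MyoF they were 0.48, 0.50 and 0.41, against -0.06, -0.03 and -0.1. In M-MyoF, 1 member was lower with equal sums and 2 with quantile normalization, against 44.1% and 48.1% of all genes. For the difference of the effects, equal sums gave 8 positive members (32.2% of all genes) and a median of -0.13. Quantile normalization gave a median of -0.16. N-MF against N-MyoF turned to medians of 0.02, 0.28 and 0.16. By median-ratio scaling 65 members were higher and 3 lower (42.9% and 37.6% of all genes). By quantile normalization 45 were higher and 7 lower (40.6% and 38.5%). M-MF against M-MyoF gave medians of -0.10, 0.12 and -0.02, with 10 members higher by equal sums (23.6% of all genes). By median-ratio scaling 40 were higher and 10 lower (37.6% and 40.1% of all genes). By quantile normalization 23 were higher and 22 lower (35.7% and 40.7%). Single members turned too. In M-MyoF, Mrpl9 was -0.05, -0.02 and -0.15 under these scalings, Mrpl4 -0.06, -0.03 and -0.18, and Mrpl49 -0.03 by quantile normalization. In M-MF, Mrpl3 was -0.01 by median-ratio scaling and -0.10 by quantile normalization, Mrpl27 -0.04 and Mrps25 0.00 by quantile normalization.

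A pseudocount of 0.1 gave medians of 0.51 in M-MF and -0.21 for M-MF against M-MyoF, and one of 5 gave 0.40 in M-MF, 0.56 in M-MyoF, -0.17 for the difference and -0.19 for M-MF against M-MyoF. Leaving out the libraries numbered 3 gave medians of -0.18 for the difference and -0.22 for M-MF against M-MyoF. Leaving out each library in turn gave medians of 0.47 to 0.50 in M-MF, 0.64 to 0.67 in M-MyoF, -0.22 to -0.19 for the difference, -0.03 to 0.0 for N-MF against N-MyoF and -0.23 to -0.19 for M-MF against M-MyoF, with 73 to 75 members higher in M-MF and 78 in M-MyoF. With 1 library left out, 44.9% to 46.4% of all genes were higher in M-MF and 47.9% to 49.1% in M-MyoF. With the replicate block, 75 members were higher and 3 lower in M-MF (46.9% and 32.2% of all genes). In M-MyoF 78 were higher (49.7% of all genes). The block gave 45 negative differences (39.3% of all genes, against 38.0% without it). Of the named members, it changed the call of the Mrpl57 difference (-0.18, past the test with the block) and no other. The compared-groups-only fit could not be run for the difference, which uses all 4 groups. With unknown depth, the precision rests on the spread of 3 libraries.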
